A study of Homo sapiens with 8 samples.

Results

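The 45 genes described here encode the machinery of mitosis: the kinases and cyclins that start it, the spindle, the kinetochores, the spindle checkpoint and the proteins that end it. They were taken as a given list of current gene symbols, and each had a value in the deposited data, 45 of 18689 genes with a RefSeq protein-coding entry. Their levels were compared between A498 and 786-O cells and between each SLINKY siRNA and the non-targeting control (NTC), gene by gene. All 45 passed the filter on low values (mean FPKM of 1 or more), which left 10501 genes for the tests. FPKM counts fragments relative to transcript length and to all mapped fragments of a library, so levels of different genes can be compared on this scale.

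A498 and 786-O are established cell lines of clear cell renal cell carcinoma (ccRCC), and SLINKY is a long intergenic non-coding RNA that both express. Each cell line gave 4 libraries: NTC 1, NTC 2, SLINKY siRNA #1 and SLINKY siRNA #2, so that an siRNA had 1 library per cell line. All cells, the controls included, received siRNA by lipid transfection, at 50 nM for 16 hr. A498 cells were kept in DMEM and 786-O cells in RPMI-1640, and the effects of the cell line and of the medium cannot be told apart. The labels call all siRNAs pools and do not say whether libraries came from separate cultures, so p-values measure only the spread between these libraries, which may be technical.

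The depth was estimated at 25073925 to 64545603 mapped reads per library. SLINKY was at 14.6 and 16.1 FPKM in the NTC libraries of A498 and at only 1.45 and 1.39 FPKM in those of 786-O. It was 89.3% and 80.3% below the NTC mean in A498 with siRNA #1 and #2 (1.64 and 3.01 FPKM). In 786-O it was 96.0% and 58.2% below it (0.0569 and 0.594 FPKM), from a start near 1 FPKM. Of the renal and ccRCC markers, PAX8 was at 39.2 to 48.1 FPKM and PAX2 at 1.06 to 1.84 FPKM in all libraries, EGLN3 was at 50.4 to 56.3 FPKM in A498 and 14.5 to 17.2 FPKM in 786-O, and LRP2, CUBN, AQP1 and CA9 stayed under 1 FPKM. The leukocyte markers PTPRC and CD3E were at 0 in every library, CD68 was at 138 to 151 FPKM in A498 and 1.70 to 5.20 FPKM in 786-O, and the summed endothelial markers did not exceed 0.0448 FPKM. The stromal markers summed to 18.1 to 19.9 FPKM in A498 and 4.71 to 8.31 FPKM in 786-O, and whether these marker differences bear on the results was not tested.

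A cell enters mitosis when CDK1, bound to a B-type cyclin, is switched on and phosphorylates a large number of proteins. Microtubules of the spindle then attach to chromosomes at kinetochores, large protein assemblies built on the centromere, and the spindle checkpoint delays anaphase until each kinetochore is attached. CDC20 then turns on the anaphase-promoting complex, which marks securin and cyclin B for destruction, so that sister chromatids part and the cell divides. Transcripts of these genes rise together in G2 and mitosis, driven by FOXM1, MYBL2 (B-Myb) and the MuvB complex, which binds promoters at a short element called the CHR, often close to CCAAT boxes bound by NF-Y.

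Promoter sequences were taken from RefSeq (build GRCh38.p14, 250 bases before to 50 bases after the gene start) and matched to 38 of the 45 genes by symbol. AURKA, BUB3, TTK, TPX2, BIRC5, UBE2C and FOXM1 had no entry. The last 150 bases before the start are shown for 8 genes picked as examples. CHR letters (TTTGAA or TTCGAA, either strand) and CCAAT boxes (CCAAT, either strand) are in capitals. The windows are read 5′ to 3′ along the gene's strand. They lie at chr15:59104996-59105145, chr1:43358831-43358980, chr16:23678739-23678888, chr1:37692366-37692515, chr5:138178962-138179111, chr5:69167000-69167149 and chr20:43666964-43667113 on the plus strand, in the order CCNB2, CDC20, PLK1, CDCA8, KIF20A, CCNB1 and MYBL2, and at chr10:128126424-128126573 on the minus strand for MKI67.
CCNB2: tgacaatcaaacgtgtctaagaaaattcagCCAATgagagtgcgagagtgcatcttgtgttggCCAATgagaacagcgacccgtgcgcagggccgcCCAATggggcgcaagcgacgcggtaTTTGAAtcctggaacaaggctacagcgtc
CDC20: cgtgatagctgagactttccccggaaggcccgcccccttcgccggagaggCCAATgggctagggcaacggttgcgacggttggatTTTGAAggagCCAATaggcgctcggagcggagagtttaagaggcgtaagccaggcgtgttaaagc
PLK1: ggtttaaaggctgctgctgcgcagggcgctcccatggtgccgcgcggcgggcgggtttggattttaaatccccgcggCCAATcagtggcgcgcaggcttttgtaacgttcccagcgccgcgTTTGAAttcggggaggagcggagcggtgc
CDCA8: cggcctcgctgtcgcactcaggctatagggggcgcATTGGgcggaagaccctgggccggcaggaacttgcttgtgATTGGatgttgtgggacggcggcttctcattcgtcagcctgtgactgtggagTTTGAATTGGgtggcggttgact
MKI67: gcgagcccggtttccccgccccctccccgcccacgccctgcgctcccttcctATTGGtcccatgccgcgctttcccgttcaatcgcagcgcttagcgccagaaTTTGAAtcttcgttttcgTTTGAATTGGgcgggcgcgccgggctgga
KIF20A: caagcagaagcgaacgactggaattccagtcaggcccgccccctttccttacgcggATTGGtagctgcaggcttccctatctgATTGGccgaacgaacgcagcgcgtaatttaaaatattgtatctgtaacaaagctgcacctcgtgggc
CCNB1: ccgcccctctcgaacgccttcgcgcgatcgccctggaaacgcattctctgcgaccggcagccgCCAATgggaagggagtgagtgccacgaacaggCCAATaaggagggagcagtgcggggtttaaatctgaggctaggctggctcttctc
MYBL2: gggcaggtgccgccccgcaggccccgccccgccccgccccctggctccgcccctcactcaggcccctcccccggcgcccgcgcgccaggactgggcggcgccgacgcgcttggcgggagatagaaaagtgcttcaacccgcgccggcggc

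CCNB2, CDC20, PLK1, CDCA8 and MKI67 held at least 1 CHR match in this window. KIF20A and CCNB1 held 2 CCAAT boxes and no CHR letters, and MYBL2 held neither. Over the full 300 bases, 29 of the 38 promoters (76.3%) held a CHR match, against 16.6% of all 27305 promoters, and 30 (78.9%) held a CCAAT box, against 35.7%. At least 2 CCAAT boxes were present in 18 (47.4%, against 11.3% of all promoters), and both motifs in 24 (63.2%, against 6.58%). A CHR match within 50 bases of the start, a distance chosen after the matches were seen, was found in 25 promoters (65.8%, against 5.21%). For 124 other genes of mitosis, of which 105 had a promoter, the shares lay between those of the 38 and of all promoters. A CHR match was in 41.9%, a CCAAT box in 53.3% and at least 2 CCAAT boxes in 27.6%. Both motifs were in 25.7%, and a CHR match within 50 bases of the start in 30.5%. A match describes letters and is not evidence of binding, and the absence of a match concerns only these letters in this window.

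**Figure D1:**
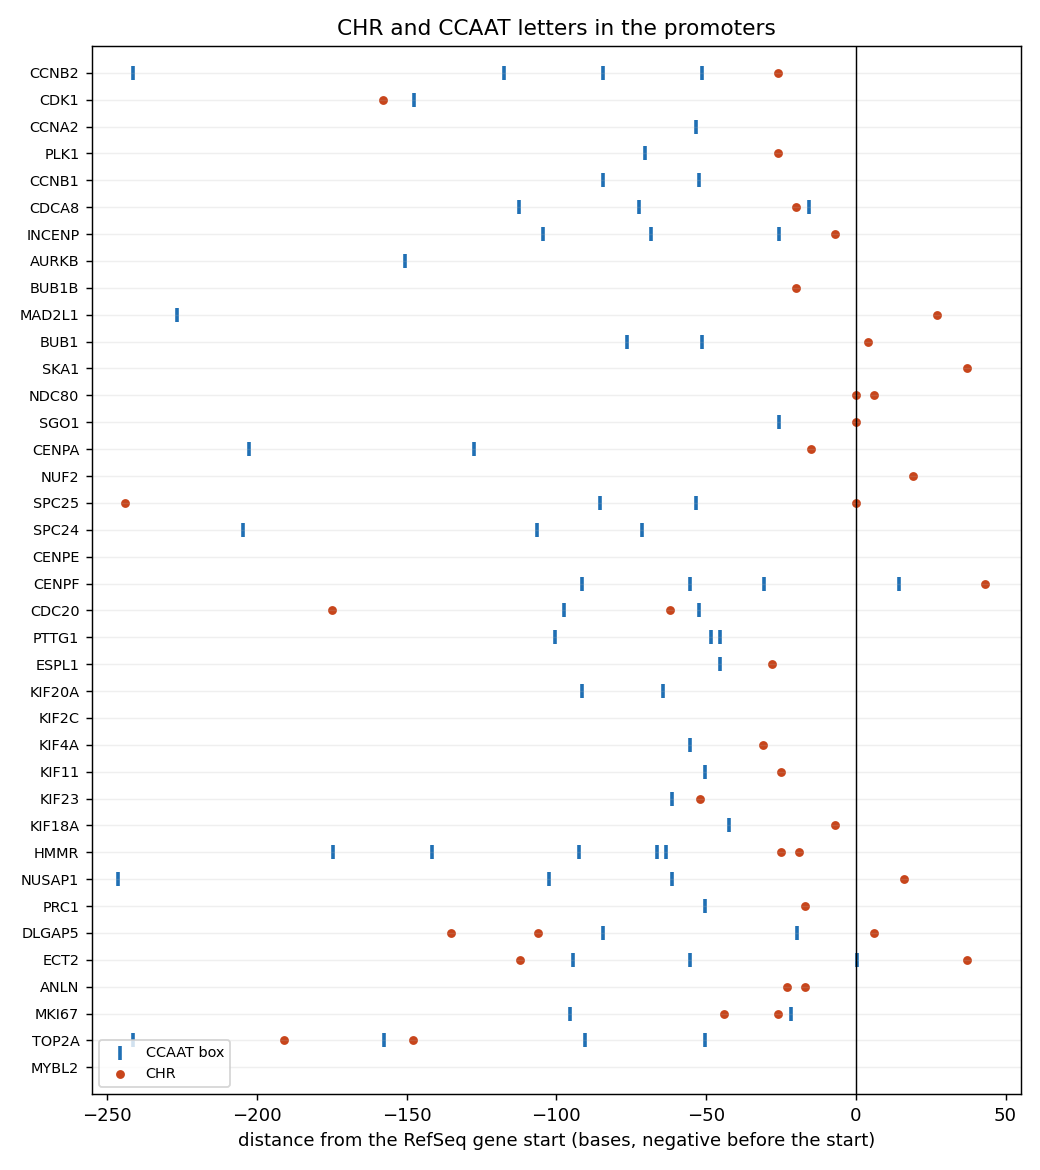
Positions of CHR letters (filled circles) and CCAAT boxes (vertical ticks) in the RefSeq promoters of 38 mitosis genes, as the distance in bases of the centre of each match from the gene start (horizontal axis). Genes are grouped by role and most CHR matches lie close to the start, with 25 of the 38 promoters holding one within 50 bases.

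The mitosis genes were well expressed in both cell lines. Their median level was 26.7 FPKM, against 9.72 FPKM for all genes tested, and 39 of the 45 lay above that median. PTTG1 (securin, the inhibitor of separase) was highest at a mean of 319 FPKM, above 97.5% of the genes tested, followed by UBE2C, the ubiquitin-conjugating enzyme of the anaphase-promoting complex, at 289 FPKM. The lowest were CENPE, a kinesin of the kinetochore, at 3.39 FPKM and ESPL1, which encodes separase itself, at 3.96 FPKM. For the 24 genes with a single RefSeq entry, the Cufflinks interval corresponded to 178 to 23965 fragments per library, and its half-width did not exceed 15% of the value. These intervals cover counting error only.

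**Figure D2:**
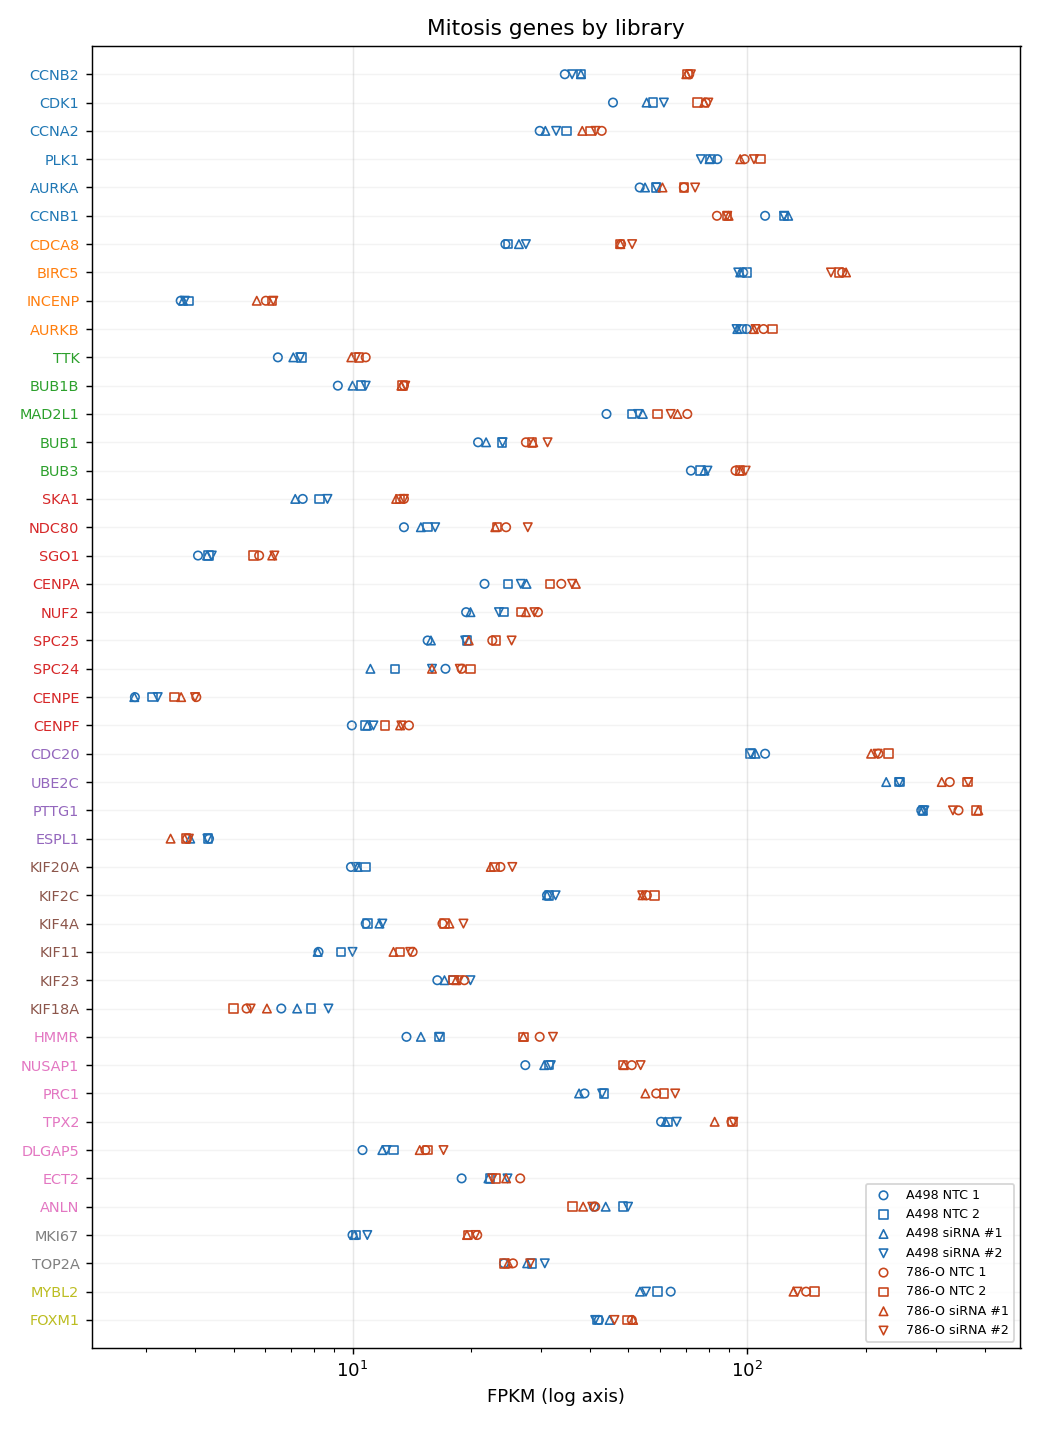
FPKM of the 45 mitosis genes (rows, grouped and coloured by role) in the 8 libraries, on a log axis. Blue symbols are A498 and red symbols 786-O, circles and squares are NTC libraries, triangles are siRNA libraries. In 37 rows all red symbols lie to the right of all blue symbols, and the symbols of 1 cell line lie close together.

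Most mitosis genes were higher in 786-O than in A498. In limma's test on log2(FPKM + 0.1), with the cell line and the treatment in the fit, 38 of the 45 were higher in 786-O at a Benjamini-Hochberg adjusted p under 0.05, where 42.8% of all genes tested were higher. Only CCNB1, KIF18A, ESPL1 and ANLN were higher in A498, 4 of 45, where 41.0% of all genes tested were. KIF23, ECT2 and TOP2A did not pass the test. The median log2 difference (786-O minus A498) was 0.41 over the 45 genes and 0.017 over all genes tested, and it ranged from -0.47 for CCNB1 to 1.26 for MYBL2. All 4 libraries of 786-O lay above all 4 of A498 in 37 of the genes (39.5% of all genes tested) and below them in 3 (37.7%). With the NTC libraries alone, 2 against 2, 39 were higher and 2 lower in 786-O. The shares of all genes tested given above come from all 8 libraries, not from this smaller test. Its counts of 39 and 2 therefore have no matching share to be set against. In RNA from whole cultures, a larger share of cells in mitosis and more RNA per cell cannot be told apart.

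**Figure D3:**
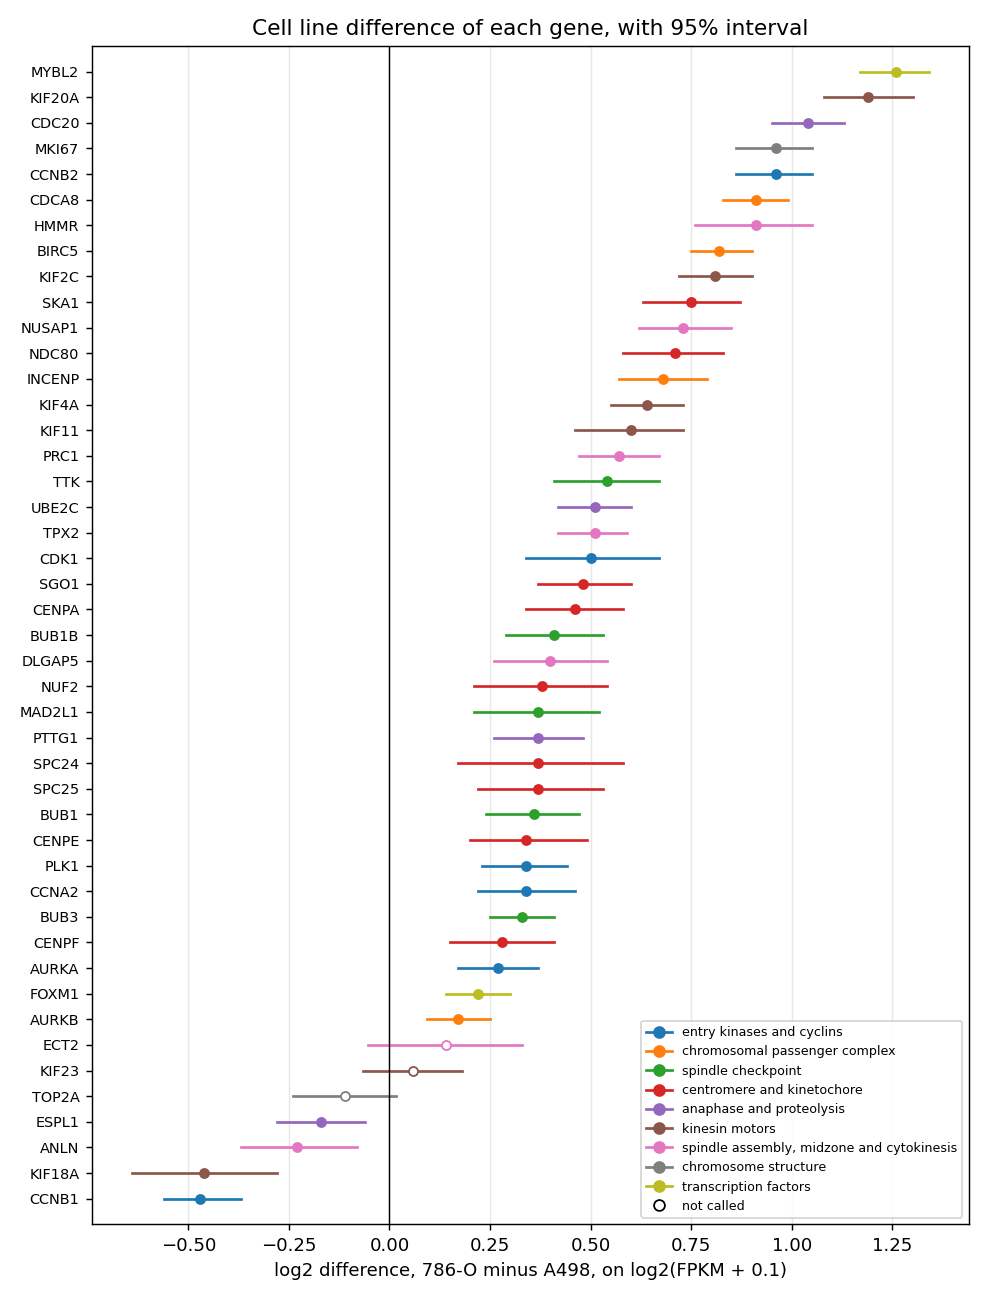
Log2 difference between 786-O and A498 for each of the 45 mitosis genes (786-O minus A498 on log2(FPKM + 0.1), points) with its 95% interval (lines), coloured by role, open points not called. The 38 called genes to the right of 0 reach 1.26 for MYBL2, and CCNB1, KIF18A, ANLN and ESPL1 lie to the left of 0.

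Among the entry kinases and cyclins, 5 of 6 were higher in 786-O and 1 was lower, with a median log2 difference of 0.34. Beside this count and those of the other roles below stand the shares of all genes tested, 42.8% called higher and 41.0% lower. CDK1, the kinase that drives entry into mitosis, was at 45.7, 57.7, 55.6 and 61.5 FPKM in A498 (here and below in the order NTC 1, NTC 2, siRNA #1, siRNA #2) and at 78.6, 74.8, 77.8 and 79.7 FPKM in 786-O. NTC 1 was the lowest A498 library and the cell lines did not overlap (log2 difference 0.50, SE 0.072, limma adjusted p = 0.000148). CCNB1 (cyclin B1) was at 111, 124, 127 and 124 FPKM in A498 and at 83.8, 88.9, 89.7 and 89.0 FPKM in 786-O, so every A498 library was above every 786-O library (log2 difference -0.47, SE 0.043, limma adjusted p = 6.43e-06). CCNB2 (cyclin B2) was at 34.5, 37.9, 37.9 and 36.0 FPKM in A498 and at 71.3, 70.5, 70.1 and 72.0 FPKM in 786-O. It was 1.94-fold higher in 786-O, with no overlap (limma adjusted p = 3.68e-08). In A498 cyclin B1 was thus at a mean of 121 FPKM and cyclin B2 at 36.6, and in 786-O they were at 87.8 and 71.0 FPKM.

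The mitotic kinases AURKA and PLK1, which mature the centrosomes and build the spindle, were also higher in 786-O. AURKA was at 53.4, 58.7, 55.1 and 58.9 FPKM in A498 and at 69.1, 69.1, 61.0 and 73.8 FPKM in 786-O, with siRNA #1 of 786-O closest to A498. PLK1 was at 84.0, 80.8, 80.3 and 76.3 FPKM in A498 and at 98.5, 108, 96.0 and 104 FPKM in 786-O. Neither gene overlapped between the cell lines, and their log2 differences were 0.27 (SE 0.045) and 0.34 (SE 0.045, limma adjusted p = 0.000434 and 9.35e-05). With only the highest transcript entry of each library kept, AURKA had a log2 difference of 0.68 (limma adjusted p = 0.000452). CDK1 was at 0.49 and PLK1 at 0.34 under the same setting. The AURKA entry that led in A498 NTC 1, NTC 2 and siRNA #2 differed from that in A498 siRNA #1 and all 786-O libraries. The value of 0.68 is therefore not the line difference of any single AURKA entry. CCNA2 (cyclin A2) was 1.27-fold higher in 786-O.

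The chromosomal passenger complex, which corrects wrong attachments and later acts at the midzone, was higher in 786-O in all 4 of its genes, with a median log2 difference of 0.75. BIRC5 (survivin) was at 97.7, 99.9, 96.0 and 94.9 FPKM in A498 and at 174, 171, 178 and 163 FPKM in 786-O. CDCA8 (borealin) was at 24.4, 24.8, 26.4 and 27.5 FPKM in A498 and at 47.9, 47.6, 47.7 and 51.1 FPKM in 786-O. In both genes the lines stood well apart, with log2 differences of 0.82 (SE 0.033) and 0.91 (SE 0.036, limma adjusted p = 2.25e-08 and 1.98e-08). The scaffold INCENP was 1.60-fold higher, while the kinase of the complex, AURKB, differed by only 1.13-fold.

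All 5 spindle checkpoint genes were higher in 786-O, by similar amounts, with log2 differences from 0.33 for BUB3 to 0.54 for the kinase TTK (MPS1) and a median of 0.37. BUB3, the most abundant of them, was at 72.0, 76.2, 77.9 and 79.3 FPKM in A498 and at 93.4, 96.0, 95.7 and 99.1 FPKM in 786-O. BUB1, BUB1B (BUBR1) and MAD2L1 (MAD2), which with BUB3 hold back CDC20, were 1.28-, 1.33- and 1.29-fold higher. No checkpoint gene overlapped between the cell lines, where 39.5% of all genes tested lay wholly above and 37.7% wholly below in 786-O.

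All 9 centromere and kinetochore genes were higher in 786-O (42.8% of all genes tested), with a median log2 difference of 0.38. CENPA, the histone H3 variant that marks the centromere, was at 21.6, 24.8, 27.6 and 26.7 FPKM in A498 and at 33.8, 31.6, 36.8 and 36.0 FPKM in 786-O, with a log2 difference of 0.46 (SE 0.052). In each line both NTC libraries were below both siRNA libraries, but the cell lines did not overlap. NDC80, the microtubule-binding subunit of the kinetochore's NDC80 complex, was at 13.5, 15.5, 14.9 and 16.2 FPKM in A498 and at 24.5, 23.2, 23.0 and 27.8 FPKM in 786-O. Its log2 difference was 0.71 (SE 0.054, limma adjusted p = 1.82e-06), while the other 3 subunits of the same complex, NUF2, SPC24 and SPC25, were at 0.38, 0.37 and 0.37. SKA1, of the complex that follows microtubule ends, was at 7.48, 8.25, 7.16 and 8.64 FPKM in A498 and at 13.5, 13.2, 12.9 and 13.5 FPKM in 786-O, and the lines did not overlap (log2 difference 0.75, SE 0.052). SPC24 was the only called gene of the group whose libraries overlapped, because A498 NTC 1 at 17.2 FPKM stood above 786-O with siRNA #1 at 15.9 FPKM. SGO1 (shugoshin, which protects cohesin at centromeres) was 1.40-fold higher in the sum of its 13 transcript entries. With only the highest entry of each library kept, its log2 difference was -0.10 (limma adjusted p = 0.562). That entry was at 1.15 to 1.94 FPKM in A498 and 1.28 to 1.41 FPKM in 786-O. It was a different entry in 786-O NTC 2 and siRNA #1 than in the other libraries.

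Of the 4 anaphase and proteolysis genes, 3 were higher in 786-O (42.8% of all genes tested). CDC20, the activator that checkpoint proteins restrain, was at 111, 102, 105 and 102 FPKM in A498 and at 215, 228, 206 and 214 FPKM in 786-O. It was 2.05-fold higher, with no overlap (log2 difference 1.04, SE 0.040, limma adjusted p = 1.62e-08). PTTG1 was at 276, 279, 278 and 281 FPKM in A498 and at 343, 381, 385 and 332 FPKM in 786-O, and its log2 difference was 0.37. The value of PTTG1 is uncertain, because short reads can be split with its close copy PTTG2, which was listed at 35.9 to 42.9 FPKM in A498 and 47.4 to 57.0 FPKM in 786-O. UBE2C was 1.42-fold higher in 786-O, and ESPL1 was 1.12-fold lower (limma adjusted p = 0.00906) and did not pass the test in the NTC libraries alone (limma adjusted p = 0.0947).

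Of the kinesin motors, 4 of 6 were higher in 786-O (42.8% of all genes tested), KIF18A was lower and KIF23 was not called. KIF20A (MKLP2), needed for cytokinesis, was at 9.91, 10.8, 10.3 and 10.2 FPKM in A498 and at 23.7, 22.9, 22.4 and 25.4 FPKM in 786-O. It was 2.28-fold higher (log2 difference 1.19, SE 0.049, limma adjusted p = 2.68e-08). KIF2C (MCAK), which takes microtubules apart at kinetochores, was at 31.1, 31.5, 31.1 and 32.7 FPKM in A498 and at 55.7, 58.2, 54.3 and 54.2 FPKM in 786-O, 1.76-fold higher. KIF11 (Eg5), which pushes the poles apart, and the chromokinesin KIF4A were 1.51- and 1.55-fold higher. KIF4A is uncertain in the same way as PTTG1, since its copy KIF4B was listed at 2.97 to 3.66 FPKM in A498 and 4.76 to 5.35 FPKM in 786-O. KIF18A, which damps chromosome movements, was 1.37-fold lower in 786-O (log2 difference -0.46, SE 0.079), with no overlap. KIF23 (MKLP1) had a log2 difference of 0.058, with a 95% interval from -0.066 to 0.18.

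In the spindle assembly, midzone and cytokinesis group, 5 of 7 genes were higher in 786-O (42.8% of all genes tested). The median log2 difference of the group was 0.51. TPX2, which activates AURKA on the spindle, was at 60.5, 63.0, 62.1 and 66.3 FPKM in A498 and at 91.2, 91.8, 82.7 and 92.2 FPKM in 786-O, and the lines did not overlap (log2 difference 0.51, SE 0.039). NUSAP1, which bundles spindle microtubules, was at 27.4, 31.5, 30.6 and 31.8 FPKM in A498 and at 51.0, 48.5, 48.7 and 53.7 FPKM in 786-O. HMMR, a spindle pole protein, was at 13.7, 16.6, 14.9 and 16.6 FPKM in A498 and at 29.8, 27.1, 27.1 and 32.2 FPKM in 786-O. They were 1.66- and 1.87-fold higher in 786-O, without overlap. ANLN (anillin, of the contractile ring) was lower in 786-O by 1.17-fold, with overlap between the lines, and did not pass the test in the NTC libraries alone (limma adjusted p = 0.0909). ECT2, the exchange factor that switches on RhoA for furrowing, had a log2 difference of 0.14 (95% interval -0.054 to 0.33). Without siRNA #2 of either cell line it was 0.23 and passed the test (limma adjusted p = 0.0285 and 0.0286), and in the NTC libraries alone it was 0.27 (limma adjusted p = 0.0418).

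The genes of chromosome structure, both common proliferation markers, gave different results. MKI67 (Ki-67, which coats mitotic chromosomes) was at 10.0, 10.2, 10.1 and 10.9 FPKM in A498 and at 20.7, 19.6, 19.5 and 20.5 FPKM in 786-O, 1.94-fold higher with no overlap (limma adjusted p = 3.66e-08). TOP2A (topoisomerase II alpha, which untangles sister DNA) was at 24.2, 28.5, 27.7 and 30.7 FPKM in A498 and at 25.5, 24.3, 24.8 and 28.2 FPKM in 786-O. The lines overlapped, and its log2 difference of -0.11 (95% interval -0.24 to 0.017) did not pass the test, but without A498 NTC 1 it was -0.16 (limma adjusted p = 0.00538), and with median-ratio scaling between libraries -0.13 (limma adjusted p = 0.0423).

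Both transcription factors were higher in 786-O. MYBL2 was at 64.0, 59.2, 53.5 and 55.4 FPKM in A498 and at 141, 148, 131 and 134 FPKM in 786-O. Its log2 difference of 1.26 (SE 0.039, limma adjusted p = 3.87e-09), a 2.39-fold higher level in 786-O, was the largest of the 45 genes. FOXM1 was at 42.1, 41.7, 44.8 and 41.2 FPKM in A498 and at 51.0, 49.8, 51.4 and 46.1 FPKM in 786-O, without overlap, and its log2 difference was 0.22 (SE 0.036, limma adjusted p = 0.00031).

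A wider list of 124 other genes of mitosis, of which 123 passed the filter, also lay higher in 786-O: 76 were called higher and 31 lower, with a median log2 difference of 0.37. Of these 123 genes, 61.8% were thus called higher, while 42.8% of all genes tested were called higher and 41.0% lower. All 8 condensin genes and 8 of 10 cohesin genes were higher. In the anaphase-promoting complex, 9 of the 16 subunits were higher (56.2%, against 42.8% of all genes tested) and 6 lower. The largest differences were in KIF15, a spindle kinesin (1.30 against 3.46 FPKM, means of A498 and 786-O), RBL1, the pocket protein p107 (0.965 against 2.59 FPKM), and ANAPC15, which helps to dismantle the checkpoint complex (44.4 against 105 FPKM). CENPK (10.3 against 5.56 FPKM) and ANAPC10 (8.18 against 5.35 FPKM) were among the genes with the largest differences in the other direction. Of 36 genes of DNA replication, 27 were higher (75%) and 4 lower, with a median of 0.56. Of the 45 mitosis genes, 44.4% differed by more than 0.50 on the log2 scale in either direction, against 50.1% of all genes tested.

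**Figure D4:**
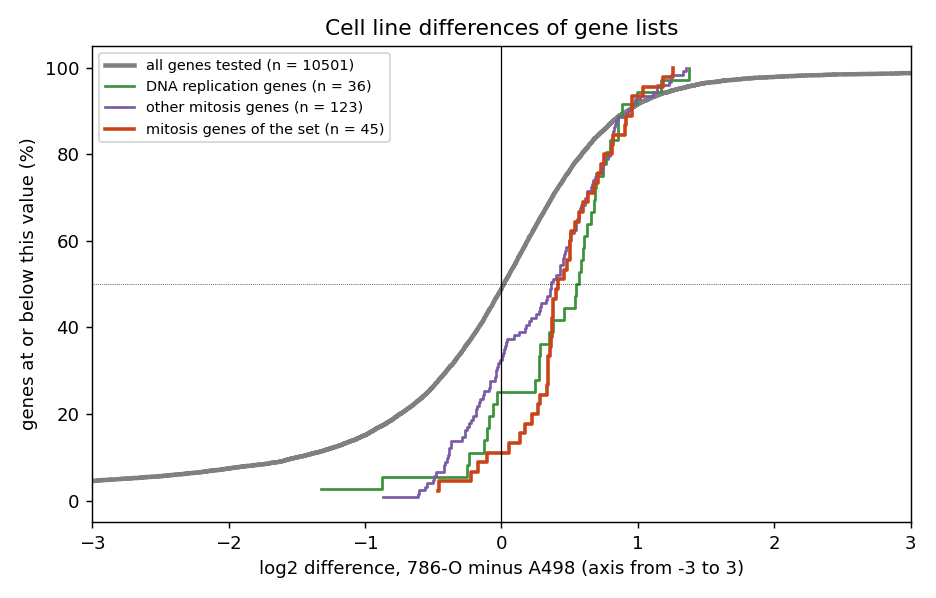
Cumulative share of genes (vertical axis, percent) by the log2 difference between 786-O and A498 (horizontal axis, shown from -3 to 3) for the 45 mitosis genes, 123 other mitosis genes, 36 DNA replication genes and all 10501 genes tested. The curves of the 3 lists cross the dotted 50% line at 0.41, 0.37 and 0.56, to the right of all genes at 0.017.

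Knockdown of SLINKY was examined next, and none of the 45 mitosis genes passed the test in any comparison with NTC. With siRNA #1, limma called 0 of 45 (0.343% of all genes tested), with 6 (13.3%) at an unadjusted p under 0.05, where 10.6% of all genes tested were. With siRNA #2 it called 0 (0.0286%), again with 6 at that level (all genes tested 13.5%). With the mean of both siRNAs it called 0 (0.0571%), with 5, or 11.1% (all genes tested 13.2%). Within A498 it called 0 (0.00952%), with 2 at an unadjusted p under 0.05 (all genes tested 6.09%), and within 786-O 0 (0%), with 0 (4.58%). The interaction of knockdown and cell line was called in 0 of the 45 (0.00952%), with 0 at an unadjusted p under 0.05 (1.82%). The unadjusted counts rested on single libraries: with 1 library left out they ran from 1 (without A498 siRNA #1) to 8 (without A498 NTC 1) for siRNA #1, from 2 (without siRNA #2 of either line) to 14 (without A498 NTC 2) for siRNA #2, and from 3 to 10 (without A498 NTC 2) for the mean of both. The siRNAs share their NTC libraries, so their values are not independent.

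For siRNA #1 the 95% interval of the log2 difference lay within 0.32 of 0 (25% higher or 20% lower) in 41 of the 45 genes. The count was 39 for siRNA #2 and 43 for the knockdown as a whole. Of all 10501 genes tested, 7890, 7783 and 8967 lay within it in the same order. Within a rise of 50% or the matching fall the counts of the 45 were 44, 45 and 45. Those of all genes tested were 10060, 10096 and 10264, so nearly all genes lay within this wider range. CDK1 had log2 differences of 0.12 and 0.26 with siRNA #1 and #2 in A498 and 0.022 and 0.055 in 786-O. AURKA had -0.023 and 0.074 in A498 and -0.18 and 0.095 in 786-O, PLK1 -0.037 and -0.11 in A498 and -0.11 and 0.0067 in 786-O, and MKI67 -0.0016 and 0.11 in A498 and -0.048 and 0.019 in 786-O. Between the NTC libraries (NTC 2 minus NTC 1), the difference in A498 was 0.33 in CDK1, 0.13 in AURKA, -0.057 in PLK1 and 0.033 in MKI67, and in 786-O it was -0.072, 3.8e-05, 0.14 and -0.078. The difference from the NTC mean was larger in size than the NTC difference for AURKA with both siRNAs in 786-O and for PLK1 and MKI67 with siRNA #2 in A498, and smaller in the other comparisons of these 4 genes.

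A single siRNA library was also set against the mean of the log2 values of its NTC libraries, with no test, at the threshold of the study's methods (at least 25% higher or 20% lower). In A498, siRNA #1 gave 0 mitosis genes higher and 1 lower (1.47% and 2.31% of all genes tested), and siRNA #2 gave 0 and 0 (2.48% and 3.01%). In 786-O, siRNA #1 gave 0 and 0 (3.28% and 2.69%) and siRNA #2 gave 0 and 0 (2.24% and 1.68%). Between the NTC libraries of A498, 2 genes were higher and 1 lower in NTC 2 than in NTC 1 (2.55% and 2.11%), and in 786-O 0 and 0 (2.68% and 1.95%). The 1 gene past the threshold was SPC24, at 11.1 FPKM with siRNA #1 in A498, against 17.2 and 12.8 FPKM in NTC 1 and NTC 2 and 15.9 FPKM with siRNA #2. The NTC libraries themselves thus differed by 0.42 on the log2 scale, and siRNA #1 lay 0.41 below their mean. With NTC 2 alone as the control, 0 genes passed the threshold in either direction with siRNA #1 in A498 (4.43% of all genes tested). With NTC 1 alone, 2 genes passed it with siRNA #1 (6.42%) and 4 with siRNA #2 (10.9%). In 786-O, 1 gene passed it with siRNA #1 when NTC 1 was left out (7.68%). The study lists AURKA as up-regulated by both siRNAs in both cell lines. Here the sum of its entries did not pass the threshold with either siRNA in either line. Its log2 differences with siRNA #1 and #2 were -0.023 and 0.074 in A498 and -0.18 and 0.095 in 786-O. The reason for this difference from the study was not tested.

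**Figure D5:**
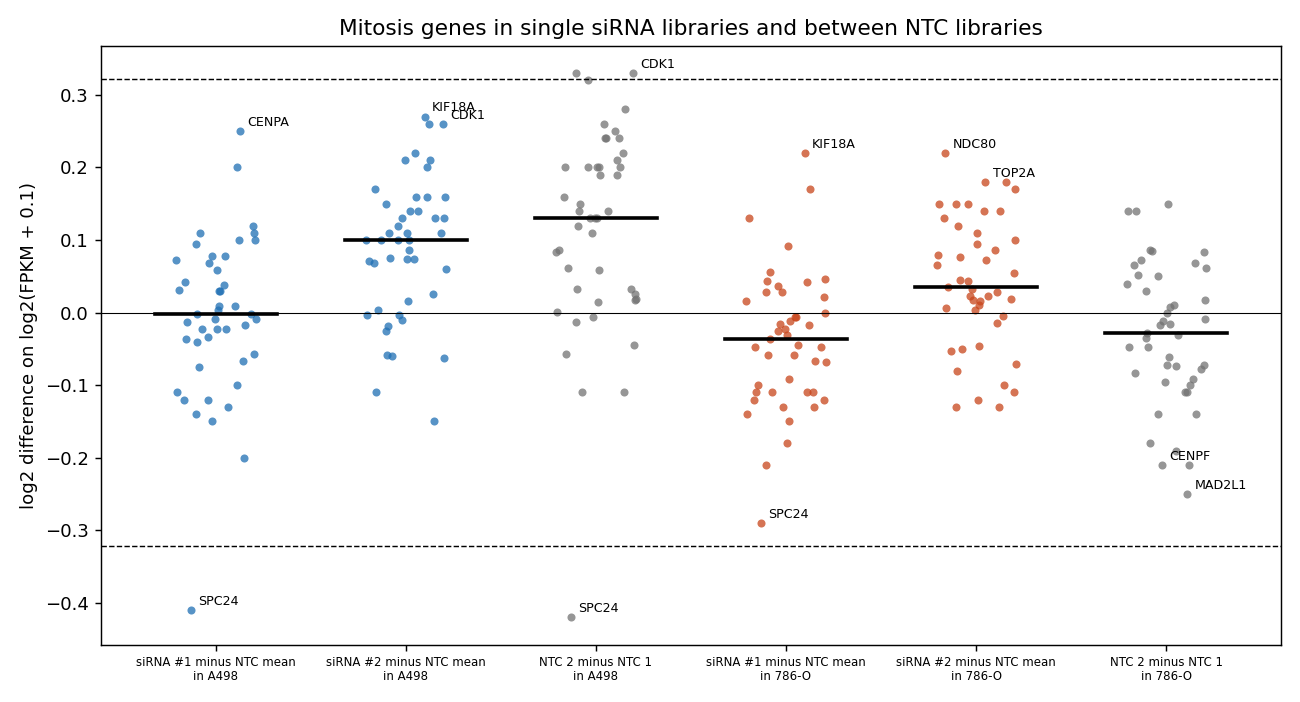
Log2 difference of each of the 45 mitosis genes (points) between a single siRNA library and the NTC mean of its cell line, and between NTC 2 and NTC 1 (gray), with the median as a black bar and dashed lines at the threshold of 0.32 in either direction. In A498, SPC24 lies below the lower line with siRNA #1 and also between the NTC libraries, whose median of 0.13 exceeds that of either siRNA.

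The level of the 45 genes also varied from library to library within a cell line. In A498, NTC 1 lay below the mean of its cell line in 37 of the 45 genes, with a median deviation of -0.083 on the log2 scale (all genes tested -0.021), and siRNA #2 lay above it in 37, with a median of 0.071 (0.012). NTC 2 was above it in 36 and siRNA #1 below it in 28. In 786-O, siRNA #2 was above the mean in 35 genes, with a median of 0.039, and siRNA #1 below it in 34, with a median of -0.041. The 786-O NTC libraries were nearest to the mean, with medians of 0.015 and -0.015. NTC 1 and siRNA #2 of A498 were also the deepest and the shallowest of the A498 libraries, at 52979965 and 25073925 mapped reads. In 786-O the deepest and the shallowest were NTC 2 and NTC 1, at 64545603 and 36248433 mapped reads, which lay nearest to the mean. The part of depth in these deviations was not tested.

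Between the siRNAs, siRNA #1 was lower than siRNA #2 in 38 of the 45 genes, with a median log2 difference of -0.081 (0.0036 over all genes tested). Limma called 0 of the 45 (0.371% of all genes tested), with 8 (17.8%) at an unadjusted p under 0.05, where 9.33% of all genes tested were, and with 3 (without 786-O siRNA #1) to 12 (without either A498 NTC library) when 1 library was left out. The smallest p belonged to PRC1, the microtubule bundler of the midzone, with a log2 difference of -0.22 (95% interval -0.36 to -0.080, limma adjusted p = 0.292), and SPC25 was at -0.33 (95% interval -0.54 to -0.11). By role, the median ran from -0.15 for the centromere and kinetochore genes to 0.049 for the transcription factors. Against NTC, the median of the 45 genes was -0.015 with siRNA #1, 0.079 with siRNA #2 and 0.018 with both, against 0.011, 0.014 and 0.012 over all genes tested. These medians also moved with single libraries. With siRNA #1 the median became 0.011 without A498 NTC 2 and -0.05 without A498 NTC 1. With siRNA #2 it fell to 0.042 without A498 siRNA #2 and 0.051 without A498 NTC 1. It rose to 0.10 without A498 NTC 2 and also without 786-O siRNA #2. With both siRNAs it became -0.0091 without A498 NTC 1 and 0.048 without A498 NTC 2. Within A498, the knockdown median of 0.049 became -0.012 without NTC 1, 0.13 without NTC 2, 0.10 without siRNA #1 and -0.0016 without siRNA #2, so that its direction depended on single libraries.

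A further 4 genes kept the same order in both cell lines, and were singled out after their values were seen. Both siRNA libraries were above both NTC libraries in A498 and in 786-O for CENPA and KIF4A, 2 genes (6.74% of all genes tested), and below them for MYBL2 and AURKB, 2 genes (4.97%). MYBL2 had log2 differences of -0.20 and -0.15 in A498 and -0.13 and -0.10 in 786-O with siRNA #1 and #2. Its knockdown effect over both lines was -0.15 (95% interval -0.24 to -0.058, unadjusted p = 0.00477 in limma, adjusted p = 0.241). CENPA had 0.25 and 0.21 in A498 and 0.17 and 0.14 in 786-O, with a knockdown effect of 0.19 (95% interval 0.073 to 0.31, limma adjusted p = 0.247). With the highest of the CENPA transcript entries alone the effect was 0.039. KIF4A and AURKB had knockdown effects of 0.11 and -0.087 (limma adjusted p = 0.316 and 0.347). TOP2A, which did not differ between the lines by the test, had 0.20 with siRNA #2 (95% interval 0.046 to 0.36, limma adjusted p = 0.315) and 0.035 with siRNA #1. FOXM1 was at -0.0075 over both siRNAs.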

How the data were processed

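RNA-seq was measured in 8 libraries of A498 and 786-O cells. The authors mapped single-end reads of 36 bp to hg19 and deposited FPKM values with 95% intervals, which Cufflinks calculated separately for each library. The submitters' processing notes name TopHat2 2.0.0 and Cufflinks 2.0.2. No counts were used, and the use of strand is not given in the sources used here.

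RefSeq protein-coding entries were given current symbols (97.7% of 35951 entries matched), and FPKM was summed per symbol. Genes with a mean of at least 1 FPKM were tested with limma 3.58.1 in R 4.3.3 on log2(FPKM + 0.1), which understates changes of low genes, with a variance trend, two-sided, and Benjamini-Hochberg adjustment over all 10501 genes at 0.05. One additive fit of cell line and treatment gave the line, siRNA and knockdown contrasts. A fit of 4 groups of 2, with the 2 siRNAs of a line as replicates, gave the interaction and the knockdown within each line. The fits were tested on simulated data. Depth was estimated from the Cufflinks intervals of single-exon entries, which gives counting precision only. A difference from a single siRNA library used the mean log2 of the 2 NTC libraries of its line, with no test.

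The 45 genes and the other lists were chosen with earlier results of these data known. Full values are given for the 12 genes with the largest line difference, for CDK1, CCNB1, AURKA, PLK1, FOXM1, MYBL2, MKI67 and TOP2A, for the highest gene of each role, and for any gene called with an siRNA (there were 0). Genes outside this rule are named by fold or range. Alternatives were the pseudocount, the filter, scaling, the entries used, the variance model, single libraries left out, and replicate blocks. Plots were drawn with matplotlib 3.10.9 in Python 3.11.15.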

Additional observations from a re-analysis of the deposited data

How the results depend on the processing

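The count of mitosis genes called between the cell lines was 42 and stayed within 39 to 43 under every alternative. The count of 39 came with a filter at a mean of 5 FPKM, under which CENPE, INCENP and ESPL1 were not tested. The counts called with siRNA #1, siRNA #2, the knockdown, the interaction and within each cell line stayed at 0. Between the siRNAs the count also stayed at 0. When single libraries were left out, the line count was 42 to 43. For single siRNA libraries past the threshold of 25% higher or 20% lower, keeping the highest entry per symbol gave 3 genes (siRNA #1) and 2 genes (siRNA #2) in A498 and 1 gene with siRNA #2 in 786-O, where 7.64%, 10.8% and 7.56% of all genes tested passed it, in place of 1, 0 and 0 (3.78%, 5.49% and 3.91%), and a threshold of 50% higher gave 0 for siRNA #1 in A498. With 1 NTC library left out, the counts were 0 to 2 for siRNA #1 and 0 to 4 for siRNA #2 in A498, and 0 to 1 for siRNA #1 in 786-O. The cause was not tested. The line difference of SGO1 reversed to -0.10 with only the highest entry of each library kept, which was not the same entry in all libraries. Same-numbered siRNA libraries of the cell lines share the siRNA, which is a term of the fit, while NTC libraries share only a number with each other and with the siRNA libraries. Deviations correlated at 0.175 between the siRNA libraries of the cell lines, -0.256 between their NTC libraries, and 0.254 in A498 and -0.0313 in 786-O between NTC and siRNA libraries. With the replicate block, 42 genes were called between the lines and 0 with the knockdown. With the NTC numbers crossed between the lines, an alternative chosen after seeing the data, the counts were 43 and 0. Each siRNA had 1 library per cell line, and the median absolute log2 difference of the 45 genes between NTC libraries was 0.14 in A498 and 0.072 in 786-O.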

Other observations

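Where a gene had several RefSeq entries, Cufflinks divided its reads between them, and the shares differed between libraries. In AURKA, an entry that held 24.3% to 46.6% of the summed FPKM in A498 held 7.18% to 22.1% in 786-O, and another held 27.5% to 57.6% and 54.3% to 71.2%. In CENPA, the lesser of its 2 entries held 0.197% and 0.000425% in the A498 NTC libraries and 28.4% and 13.1% with siRNA #1 and #2. In 786-O the same entry held 25.7% and 10.5% in the NTC libraries and 21.7% and 10.9% with siRNA #1 and #2, so the siRNA libraries did not stand apart there. The CDK1 entry that led held 96.3% to 99.8% of its FPKM in all 8 libraries. Reads of 36 bp tell such entries apart only where their exons differ, and these shares were not tested.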
